A study of Miniopterus schreibersii with 14 samples.

Results

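The components described here are 200 assembled transcript components of the bent-wing bat that were scarce in the fetal foot skeleton relative to the fetal hand skeleton. They were chosen by 2 measured values, the score in fetal metacarpals of forelimb digits II-V and the score in fetal metatarsals of hindlimb digits I-V. A score is the authors' normalized count, rounded to a whole number. Of 64618 components, 13615 had a mean score of at least 50 over this fetal pair, and 348 of these (2.56%) were at least 4-fold higher in metacarpals after 1 was added to each score. The rule leaves out 3 components, of which 2 met these limits, and takes the 200 with the highest ratio from the remaining 346. Everything below that uses the fetal pair is therefore a description of the choice, and tests were run only over the 12 earlier libraries, which played no part in it.

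The libraries come from embryonic autopods, the hand and foot ends of the limbs, of Miniopterus schreibersii, and each dissected part has 1 library. At stage S14 the forelimb bud and the hindlimb bud were each cut into an anterior, a middle and a posterior part (6 libraries). At S15-17 the forelimb gave digit I, interdigital tissue I-II, digits II-V and interdigital tissue II-V, and the hindlimb gave digits I-V and interdigital tissue I-V (6 libraries). The fetal libraries are the 2 named above. No treatment, genotype, strain or sex is given in the labels, and whether a library pooled embryos, or whether parts share an embryo, is not stated in the sources used here. The hindlimb parts include digit I while the matched forelimb parts II-V do not. Libraries held 4550754 to 7648427 reads, recovered from the steps of the scores, with 7648427 in metacarpals and 6535667 in metatarsals. Components carry assembly numbers only: 0 identifiers matched a table of 22775 genes of this species, so no gene, pathway or cell type marker can be named, and the tissue labels could not be checked against markers.

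In bats the metacarpals and phalanges of the hand grow far longer than the bones of the foot, and the tissue between digits II-V is kept as the wing membrane, while the thumb and toes stay short and free. Metacarpals and metatarsals lengthen by endochondral growth, in which cartilage cells divide, enlarge and give way to bone. A dissected metapodial also carries the layers around the bone, so its RNA is a mixture of tissues, and in such bulk samples more cells of a type and more RNA per cell cannot be told apart.

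The fetal ratio of the members ran from 6.31 to 111, with a median of 11.5. Their median score was 242 in metacarpals and 19.0 in metatarsals. Just inside the cut, comp13597_c0 scored 721 in metacarpals and 113 in metatarsals (ratio 6.33), and comp648_c0 scored 3692 and 584 (6.31). Just outside, comp6692_c0 scored 106 and 16 (6.29), and comp4719_c0 scored 206 and 32 (6.27). The lower bound of the exact 95% interval of the ratio, which covers counting error only, reached 4 in 188 of the 200 members and was 3.27 at its lowest. The intervals use the same reads that chose the members and are not corrected for that choice, so this count is a description. With 1 library per limb the spread between animals or dissections was not measured.

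The 2 highest ratios belonged to components that were at 0 in metatarsals. Component comp5256_c0 held 85 reads in metacarpals. Set against a floor of 3 reads in metatarsals, the score was at least 22.8-fold higher in metacarpals. For comp36634_c0, with 79 reads, it was at least 21.1-fold higher. Their pasts differed: comp36634_c0 was at 0 in all 12 earlier libraries, while comp5256_c0 scored 202 to 1356 in the S14 buds.

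A few members carried most of the abundance. Together the members made up 3.47% of the metacarpal score and 0.305% of the metatarsal score, against 0.219% to 0.388% in the 12 earlier libraries. The 2 most abundant accounted for 59.1% of the members' metacarpal score and the 10 most abundant for 77.7%. Component comp4_c0 scored 127724 in metacarpals and 12821 in metatarsals. It was already abundant before, with a lowest, median and highest score of 3423, 3728 and 4624 at S14 and of 5337, 6589 and 9941 at S15-17. Component comp24_c2 scored 74249 and 5842 in the fetal pair, after 1259, 2356 and 2798 at S14 and 2427, 3630 and 5767 at S15-17. Both reached their highest earlier score in interdigital tissue I-II. Without them the members' share was 1.42% of the metacarpal and 0.127% of the metatarsal score, and 0.161% to 0.226% earlier.

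**Figure D1:**
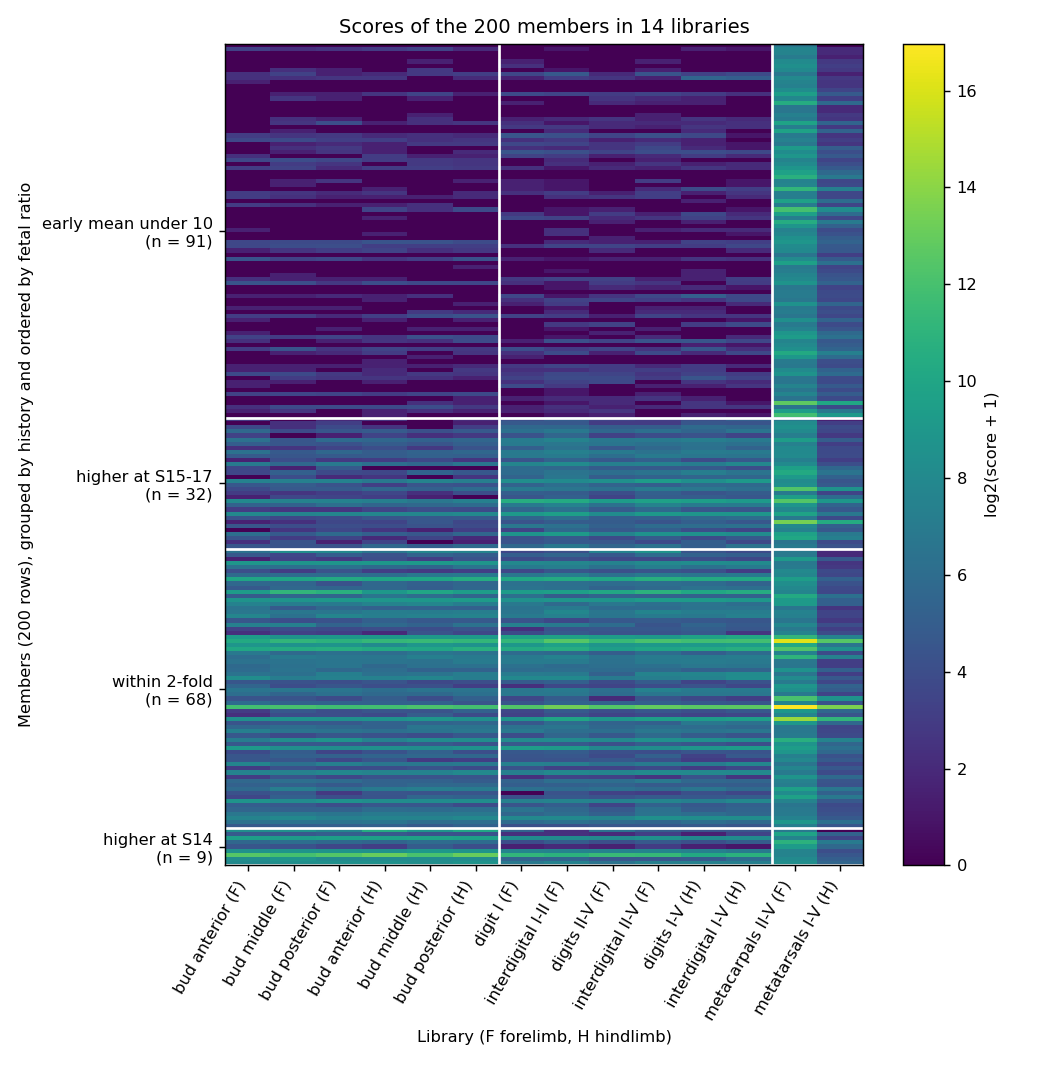
Scores of the 200 members as log2(score + 1), with 1 row per member and 1 column per library; rows are grouped by their course before the fetal period. The 91 members in the top block have an earlier mean under 10, with single scores up to 46 (comp23108_c0 in foot digits). The metacarpal column is brighter than the metatarsal column throughout, as the choice requires.

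Members fell into 4 courses by their scores before the fetal period. In 91 of 200 (45.5%) the mean over the 12 earlier libraries was under 10, against 5.68% of all 13615 components with the same fetal minimum. In all 12, 13 members were at 0, against 34 of these 13615 components. A further 32 members were at least 2-fold higher at S15-17 than at S14 in their mean score, 9 were at least 2-fold higher at S14, and 68 stayed within 2-fold. The corresponding shares were 16.0%, 4.50% and 34.0% of the members, and 7.34%, 2.49% and 84.5% of all components with that fetal minimum. Of the 200 components chosen by the same rule with the limbs exchanged, 137 (68.5%) had an earlier mean under 10. In all 12 earlier libraries 5 of them were at 0. Their shares in the other 3 courses were 15.5%, 0.5% and 15.5%. Earlier scarcity, and a share within 2-fold below that of all components, were thus not particular to the members. The median metacarpal score, which the choice used, was 205 in the scarce members, 284 in those higher at S15-17, 273 in those higher at S14 and 216 in those within 2-fold.

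The metacarpal score lay above all 12 earlier scores in 174 of 200 members (87.0%, against 33.1% of all components with the same fetal minimum). It did so in 170 (85.0%) of the 200 components chosen with the limbs exchanged, so this was not particular to the members. The members' metatarsal score lay above all 12 earlier scores in 92 (46.0%, against 34.7%) and below all of them in 50 (25%, against 35.1%). Against S15-17 digits of the same limb, log2(score + 1) changed by a median of 4.60 to metacarpals (quartiles 2.39 and 6.95) and of 0.91 to metatarsals (quartiles -1.68 and 2.80). With a 2-fold limit, 95 members were higher in both fetal parts than in the digits of that limb (47.5%, against 17.7% of all components with the fetal minimum), and 39 were higher in metacarpals with less than a 2-fold change in the foot (19.5%, against 4.60%). Another 42 were higher in metacarpals and lower in metatarsals (21.0%, against 0.419%). A further 22 were lower in metatarsals with less than a 2-fold change in the hand (11%, against 6.82%), and 2 were lower in both (1.0%, against 10.7%). A rise in the hand was thus seen in 176 members, of which 42 also fell in the foot, and a fall in the foot alone in 22. Of the components chosen with the limbs exchanged, 163 (81.5%) were higher in both fetal parts. Digits and metapodials are different dissected parts, so stage and dissection cannot be told apart in these changes. These counts rest on the same fetal values as the choice and are given as a description.

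Among the 91 scarce members the median log2 change from hindlimb digits to metatarsals was 2.74, where scarce components with the same fetal minimum had 4.34. The fetal minimum is a mean over both fetal parts. With a low earlier score it forces a rise in metacarpals, in metatarsals or in both. The scarce members met it mainly through metacarpals (median score 205, against 16.0 in metatarsals), so the minimum alone does not fix their metatarsal change. In the course within 2-fold the median was -1.30, against -0.21 over all components of that course, and 38 of 68 members, against 4608 of 11504 components, had a metatarsal score below every earlier library. In the course higher at S15-17 it was -1.32, against 1.31. The ratio used by the choice holds the metatarsal score down in every course. These differences from all components are therefore a description of the choice.

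The widest rises and falls were held by components of contrasting abundance. Component comp7875_c0 scored at most 14 in any earlier library and 2338 in metacarpals, with 167 in metatarsals. Component comp5943_c0 was at 0 in all 12 earlier libraries and scored 1775 and 117. In the other direction, comp3334_c0 scored 669 to 1906 at S15-17 and fell to 11 in metatarsals and 204 in metacarpals. Component comp593_c0 scored 4010 to 8471 at S14, 1237 to 2853 at S15-17, 195 in metacarpals and 23 in metatarsals. In both of these the metacarpal and the metatarsal score lay below all earlier libraries, and the foot score was the lower.

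**Figure D2:**
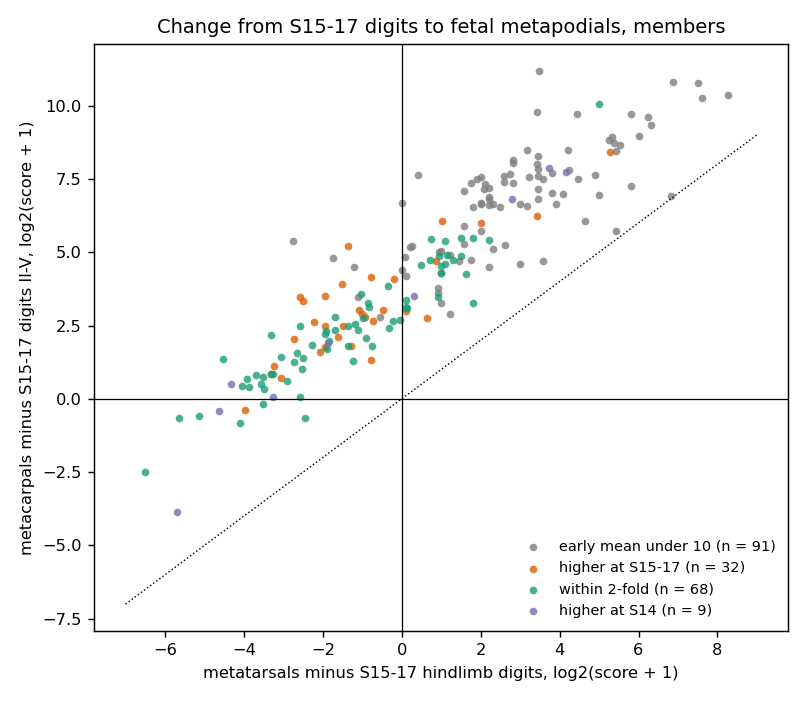
Change in log2(score + 1) from S15-17 hindlimb digits to metatarsals (horizontal) and from S15-17 digits II-V to metacarpals (vertical), with 1 point per member coloured by its earlier course; the dotted line marks equal change. Nearly all points lie above the line, as the choice implies, and the scarce members lie to the upper right, with a median of 2.74 on the horizontal axis.

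The first question for the earlier libraries was whether the forelimb excess was present before the fetal period. No shift to the forelimb was found over the members: in the 5 matched pairs of S14 and S15-17 the median forelimb minus hindlimb difference of the 200 members was -0.07 on the log2(score + 1) scale (quartiles -0.32 and 0.18). A component was tested where its mean over the 12 earlier libraries was at least 10, which 109 members met. The median of these 109 was -0.11 with 36.7% above 0, and that of all 19529 components tested was -0.04 with 43.2% above 0. In limma with the matched part as block, 0 of these 109 passed a Benjamini-Hochberg adjusted p of 0.05, and the smallest adjusted p among them was 0.13. Of all tested components 0.0614% were called higher and 0.0871% lower in forelimb. At an unadjusted p under 0.05, 7 members were higher (6.42%, against 3.10% of all tested) and 7 lower (6.42%, against 5.13%), and limma voom on the recovered reads also called 0. With the fetal pair kept out, 4 members were higher in forelimb in all 5 pairs (3.34% of all tested components were) and 7 were lower in all 5 (4.52%), shares of 3.67% and 6.42%.

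Pair by pair, the sign differed between digits and interdigital tissue. Of the 109 members tested, 51, 43 and 42 were higher in forelimb in the anterior, middle and posterior bud (46.8%, 39.4% and 38.5%). In digits 28 were higher (25.7%) and in interdigital tissue 66 (60.6%). Over all components with the same fetal minimum and an earlier mean of at least 10 (12842), these shares were 50.9%, 43.3%, 41.9%, 41.7% and 46.8%. The bud shares of the members were thus near those of all such components. The members' median difference was -0.04, -0.13 and -0.15 in the bud pairs, -0.32 in digits and 0.12 in interdigital tissue. Over the 12842 components the medians lay between -0.07 and 0.02. Digits II-V of the wing were lower than the foot digits for 76 of 109 members (69.7%, against 57.3% of the 12842 components). They were lower than digit I for 70 of the 109 (64.2%, against 48.9%). Of the components chosen with the limbs exchanged, 63 had an earlier mean of at least 10. Digits II-V were lower than the foot digits for 69.8% of these and lower than digit I for 17.5%. The lower score against foot digits was thus not particular to the members.

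**Figure D3:**
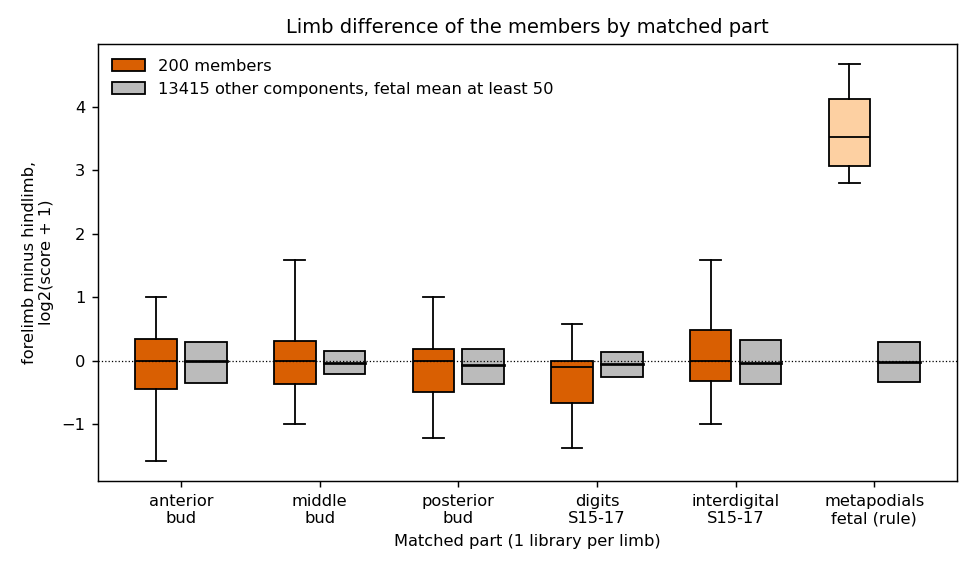
Forelimb minus hindlimb difference in log2(score + 1) for each matched part. Boxes show the median and quartiles, for the 200 members with whiskers at the 10th and 90th percentile and for the 13415 other components without whiskers; member medians lie between -0.10 and 0.00 in the 5 earlier pairs and at 3.52 in the fetal pair that chose them.

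Among members with the same sign in all 5 pairs, none was called. The widest differences toward the forelimb were those of components with low earlier mean scores, 21.0 for comp19770_c0 and 15.3 for comp19263_c0. Component comp19770_c0 scored 11, 2 and 26 in the anterior, middle and posterior forelimb bud and 0 in each hindlimb bud. It scored 30 against 27 in digits and 28 against 16 in interdigital tissue. Its log2 difference was 2.17 (SE 0.65, limma adjusted p = 0.36), which rests mainly on the buds. Component comp19263_c0 scored 22, 22, 11, 24 and 17 in the forelimb parts and 21, 6, 8, 7 and 8 in the hindlimb parts (0.97, SE 0.36, limma adjusted p = 0.52).

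Going the other way, comp18808_c0 was lower in forelimb in every earlier pair, before scoring 505 in metacarpals and 53 in metatarsals. It scored 20, 24, 26, 42 and 35 in the forelimb parts and 39, 44, 48, 110 and 84 in the hindlimb parts, with no overlap among the bud parts or among the S15-17 parts (-1.05, SE 0.21, limma adjusted p = 0.13). Component comp19889_c0 scored 18, 11, 14, 33 and 35 against 21, 25, 26, 53 and 64 (-0.74, SE 0.25, limma adjusted p = 0.45). Both were members that had the hindlimb ahead in the embryo and the forelimb ahead in the fetus.

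In the S14 buds alone, 1 member was called by limma with the part as block, comp5256_c0, and it was higher in the hindlimb. It scored 312, 384 and 202 in the anterior, middle and posterior forelimb bud and 1356, 458 and 1073 in the hindlimb bud, without overlap. The log2 difference was -1.59 (SE 0.31, adjusted p = 0.049), close to the limit, and the call was lost in most alternatives, for instance at an adjusted p of 0.46 with the filter taken over all 14 libraries of 0.076 with voom, of 0.073 without the anterior pair and of 0.25 without the posterior pair. No member was called higher in the forelimb bud, where 5 had an unadjusted p under 0.05 (4.59%, against 4.19% of all tested) and voom called 0. In the other direction 12 had an unadjusted p under 0.05 (11%, against 8.76%). Of all tested components, 0.241% were called higher and 0.410% lower in forelimb. The member with the highest fetal ratio was therefore one with a hindlimb excess in the bud.

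The limb difference changed between S14 and S15-17 for 1 member, comp7027_c0. At S14 it was present in both limbs, at 80, 333 and 249 in the anterior, middle and posterior forelimb bud and at 96, 215 and 187 in the hindlimb bud, with overlapping values. At S15-17 it scored 184 in digits II-V and 415 in interdigital tissue II-V of the wing. In digit I it scored 11, in interdigital tissue I-II 17, in foot digits 21 and in foot interdigital tissue 14. Metacarpals scored 116 and metatarsals 3. The wing parts thus remained within or above the bud range, and the thumb side and foot lay below every bud score.

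In limma with the part as block, the limb by period interaction of comp7027_c0 was 3.67 (SE 0.47, adjusted p = 0.012). Among all tested components 0.0461% were called higher by this interaction and 0.0102% lower, and 0 of the 109 members were called lower, with 12 at an unadjusted p under 0.05 (11%, against 5.54% of all tested) and 0 called by voom. The call was lost without the interdigital pair (2.81, adjusted p = 0.13), with voom (adjusted p = 0.055) and with the filter over all 14 libraries (adjusted p = 0.39). Without the middle bud pair 9 members were called (8.26%, against 3.31% of all tested), among them comp7027_c0, comp5256_c0 (3.46, limma adjusted p = 5.2e-08) and comp19770_c0 (-3.71, limma adjusted p = 0.020). With all 5 pairs the last 2 were not called. The next largest difference in this direction was that of comp5256_c0, whose hindlimb excess at S14 was followed by 77 and 30 in the wing digits and web against 19 and 22 in the foot (2.79, SE 0.58, limma adjusted p = 0.10). In the opposite direction comp19770_c0, with its bud scores given above, had -2.85 (SE 1.09, limma adjusted p = 0.40). Component comp17971_c0 scored 0, 4 and 8 against 0, 0 and 2 in the buds, then 7 and 7 against 22 and 20 (-2.76, SE 1.20, limma adjusted p = 0.44).

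The second question was whether members stood out in the parts that form the wing at S15-17. The wing minus the average of thumb side and foot had a median of -0.06 over the 200 members and of -0.12 over the 109 tested, beside -0.01 over all tested components. In limma with tissue as block, 1 member was called higher and 2 lower, where 0.184% of all tested components were higher and 0.430% lower. The wing score exceeded both counterparts in both tissues in 6 of 109 members (5.50%, against 10.4% of all tested) and lay below all of them in 21 (19.3%, against 13.7%).

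The member called higher was comp7027_c0, by 4.09 (SE 0.38, limma adjusted p = 0.00024), with the scores given above. Without foot interdigital tissue its adjusted p was 0.091, and with the filter over all 14 libraries it was 0.072. Component comp5256_c0 was next, at 77 and 30 in the wing where digit I and interdigital tissue I-II had 41 and 4 and the foot parts 19 and 22, and was not called (1.48, SE 0.54, limma adjusted p = 0.36) unless digit I was left out (2.11, limma adjusted p = 0.0031). The members called lower scored at least 233 in every S15-17 library. Component comp6951_c0 scored 233 in digits II-V and 325 in interdigital tissue II-V, where digit I and interdigital tissue I-II had 658 and 607 and the matching foot parts 481 and 625 (-1.09, SE 0.17, limma adjusted p = 0.010). Component comp4644_c1 scored 717 and 1022 in these wing parts, where the thumb parts had 1301 and 1511 and the foot parts 1282 and 1613 (-0.73, SE 0.13, limma adjusted p = 0.026). Both then scored higher in metacarpals, at 682 and 4997, than in metatarsals, at 76 and 399. Each lost its call with the filter over all 14 libraries (limma adjusted p of 0.16 and 0.18), and when digits II-V (0.12 and 0.29), foot digits (0.13 and 0.14) or foot interdigital tissue (0.24 and 0.23) was left out. The call of comp4644_c1 was also lost without digit I (0.11) and without interdigital tissue II-V (0.13).

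**Figure D4:**
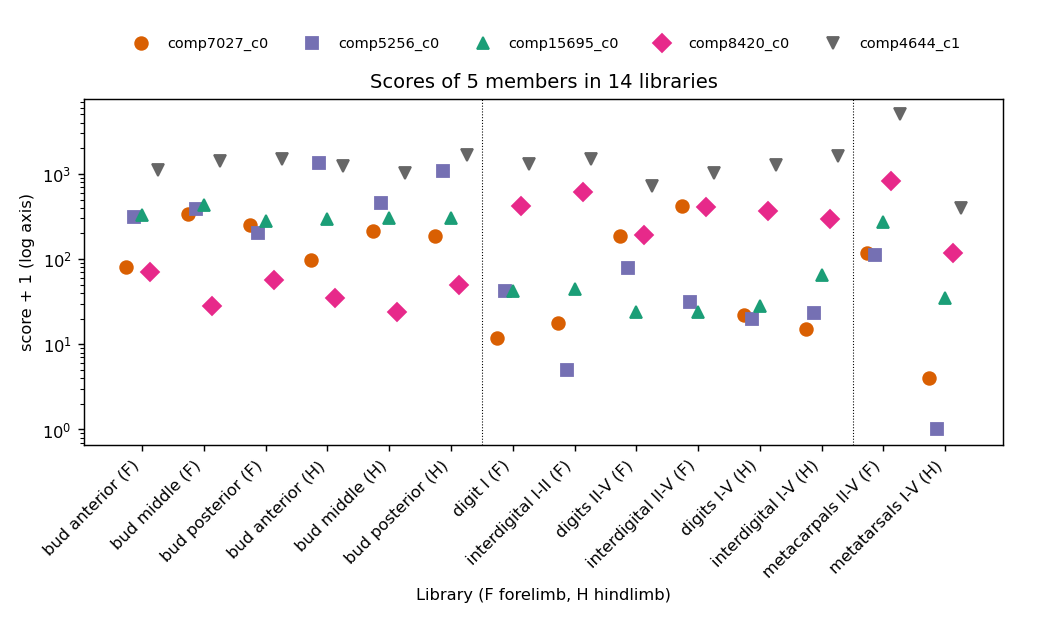
Scores plus 1, on a log axis, of 5 members in the 14 libraries, with 1 point per library and dotted lines between periods. The component comp7027_c0 stays at 184 and 415 in the wing digits and web while it lies at 11 to 21 on the thumb side and in the foot; comp15695_c0 falls from 281 or more in every bud to 64 or less at S15-17, and comp8420_c0 rises.

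The third question was whether members belonged to digits or to the tissue between them. They leaned to interdigital tissue in the forelimb. Of the 109 members tested, 76 were lower in digit I than in interdigital tissue I-II, 82 were lower in digits II-V than in interdigital tissue II-V, and 49 were lower in foot digits than in foot interdigital tissue. The median digit minus interdigital difference was -0.32 on the thumb side, -0.48 in the wing and 0.07 in the foot. Over the 12842 components with the same fetal and earlier minimum these medians were 0.03, 0.06 and 0.07. The member was lower in the digit in all 3 regions in 30 of 109 (27.5%), against 12% of all tested components, and higher in all 3 in 6 (5.50%), against 16.5%.

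No single member passed the test for this difference. In limma with region as block, 0 of 109 were called in either direction, with a smallest adjusted p of 0.097, while 0.773% of all tested components were called higher and 0.138% lower in digits. At an unadjusted p under 0.05, 20 members were lower in digits (18.3%, against 3.89% of all tested) and 3 higher (2.75%, against 5.78%), and voom called 4 (3.67%, against 1.39%). Component comp17446_c0 scored 53, 49 and 33 in the digits of thumb side, wing and foot and 111, 84 and 82 in the interdigital tissue, without overlap (-1.04, SE 0.26, limma adjusted p = 0.10). Component comp15557_c0 scored 21, 10 and 24 against 32, 40 and 35 (-1.0, SE 0.39, limma adjusted p = 0.39). Higher in digits were comp18532_c0, at 169, 63 and 43 against 118, 20 and 27 (0.92, SE 0.30, limma adjusted p = 0.25), and comp13087_c0, at 115, 106 and 91 against 58, 74 and 68 (0.63, SE 0.24, limma adjusted p = 0.38).

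The library in which a member had its highest earlier score describes this lean again from the same scores, and is not separate evidence for it. Each part is 1 library, so members are not replicates of a tissue. Interdigital tissue I-II held the earlier maximum of 31 of the 109 members (28.4%), against 8.76% of the 12842 components, and interdigital tissue II-V that of 15 (13.8%, against 8.48%). Digits II-V held it for 1 member (0.917%, against 6.88%) and the anterior forelimb bud for 7 (6.42%, against 21.7%). The 200 components chosen by the same rule with the limbs exchanged, of which 63 had an earlier mean of at least 10, gave other shares, which were not tested against those of the members. Foot digits held the earlier maximum of 28 of these 63 (44.4%) and interdigital tissue I-II that of 4 (6.35%). Their median digit minus interdigital difference was -0.60 on the thumb side, 1.36 in the wing and 1.06 in the foot. Interdigital tissue I-II had 6483035 reads and digit I 4550754, and whether depth or dissection plays a part in these layouts was not tested.

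**Figure D5:**
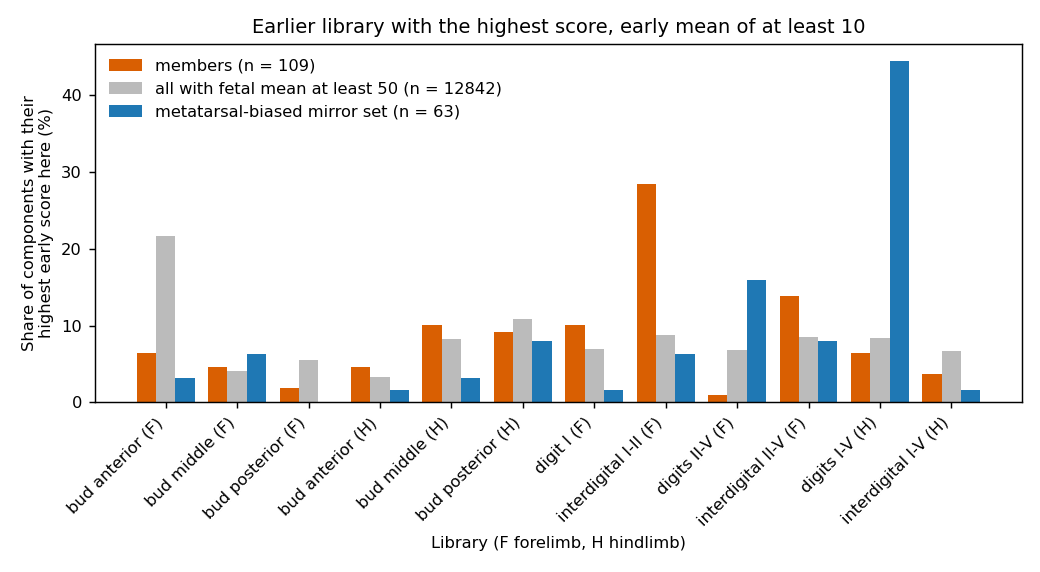
Share of components (percent, bars from 0) whose highest score among the 12 earlier libraries fell in each library, for the members, for all components with the same fetal minimum, and for the metatarsal-biased components; all have an earlier mean score of at least 10. Members peak at 28.4% in interdigital tissue I-II, and the metatarsal-biased components at 44.4% in foot digits.

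The last question was how members moved between S14 and S15-17. More of them rose than fell: of the 109 tested, limma with limb as covariate called 45 higher at S15-17 (41.3%, against 17.5% of all tested components) and 18 lower (16.5%, against 22.5%). The median log2 change was 0.24 over the 200 members and 0.30 over the 109, beside -0.04 over all tested. Of the components chosen with the limbs exchanged, 63 were tested, and the same fit called 28 higher and 2 lower. The median change over all 200 of these was 0.83. A rise before the fetal period was thus not particular to the members. Every S15-17 score exceeded every S14 score in 21 members (7.02% of all tested components) and lay below every S14 score in 13 (12.9%), shares of 19.3% and 11.9%. A change of more than 4-fold was called upward in 12 members (11%, against 2.01% of all tested) and downward in 5 (4.59%, against 0.804%). Fitted within each limb alone, 22 members were called higher in both limbs (20.2%, against 4.94%) and 13 lower in both (11.9%, against 8.71%). The 0 members called in opposite directions were not set beside a share over all components, so this count shows no trait of the members. The parts cut at the 2 periods differ, so stage and dissection cannot be told apart.

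Of the 45 members that rose, the metacarpal score lay above every S15-17 score in 40 (88.9%), within their range in 4 and below it in 1. Above was the place of 55.8% of the 2447 components that rose and had the same fetal minimum, and the choice used the metacarpal score. Component comp11174_c0 had a lowest, median and highest score of 0, 4 and 15 at S14 and of 31, 43.0 and 101 at S15-17, followed by 545 in metacarpals and 39 in metatarsals (3.70, SE 0.61, limma adjusted p = 0.00027). Component comp8420_c0 scored 23, 41 and 69 at S14, 190, 384 and 608 at S15-17, and 826 and 117 in the fetal pair (3.07, SE 0.28, limma adjusted p = 2.0e-06). In both, the metatarsal score lay within or below the S15-17 range while the metacarpal score lay above it.

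Of the 18 members that fell, the metacarpal score lay above every S15-17 score in 12 (66.7%, against 17.7% of the 3381 components that fell and had the fetal minimum), within their range in 3 and below it in 3. It reached the lowest bud score in 11 (61.1%, against 17.3%). The choice used this score as well. Component comp15695_c0 scored 281, 300 and 429 at S14 (lowest, median, highest) and 23, 34.0 and 64 at S15-17. In metacarpals it scored 273, near its bud level, and in metatarsals 34, within its S15-17 range (-3.16, SE 0.23, limma adjusted p = 5.3e-07). Component comp5256_c0 scored 202, 421 and 1356 at S14, 4, 26.0 and 77 at S15-17, and 110 in metacarpals (-4.23, SE 0.56, limma adjusted p = 4.1e-05), below its lowest bud score.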

How the data were processed

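The authors deposited 1 table of normalized counts per assembled component, rounded to whole numbers and called scores here; how they were scaled, and the assembler or aligner, are not given in these sources. CASAVA 1.8, RSEM and edgeR appear, with neither role nor order, in the submitters' processing notes. Libraries were made with a TruSeq kit from DNase-treated total RNA, per the labels' protocols. Reads per library were recovered as the largest step whose rounded multiples hold all scores up to 2000, and 99.981% to 100% of all nonzero scores then matched exactly after rounding. Reads serve for intervals, floors and voom.

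Tests used limma 3.58.1 (R 4.3.3), fitted to log2(score + 1) with its trend option, a scale that understates changes of scarce components. The fit took the 19529 components whose scores averaged at least 10 in the 12 earlier libraries, and p-values were adjusted by Benjamini-Hochberg over all of them, two-sided. This filter leaves out the fetal pair, which chose the members. Each part has 1 library, so p-values measure the spread between matched parts, or between parts of a period. The fits were tested on simulated data. Other steps ran in Python 3.11.15 (scipy 1.17.1, numpy 2.4.6, pandas 2.3.3, matplotlib 3.10.9).

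The members, comparisons and alternatives were chosen with earlier results of these data known. Named components are at most 2 per direction and comparison: called members first, then the widest log2 differences, among those with the same order in every matched unit; for the change of the limb difference between periods, that order was set after the data were seen (both later pairs beyond all 3 bud pairs). For the fetal values they are the highest ratios, the most abundant, those beside the cut, and the widest rise to metacarpals and fall to metatarsals. Marker lists could not be applied without gene names.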

Additional observations from a re-analysis of the deposited data

Results flagged for a closer look

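The limb difference of comp7027_c0 differed between periods by the interaction test given above, at 3.67 on the log2 scale, with forelimb and hindlimb overlapping at S14 and the wing parts far above the foot at S15-17.

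In 17 sets of 4 to 10 values, 3 values lay far from the others of their period, where chance flags about 1 in 20. Component comp11174_c0 scored 15 in the middle forelimb bud, where the other buds had 0 to 5, and 101 in interdigital tissue I-II, where the other S15-17 parts had 31 to 48. Component comp15695_c0 scored 429 in the middle forelimb bud, where the other buds had 281 to 324.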

How the results depend on the processing

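The comparison of limbs over 5 earlier pairs gave 0 called members under all alternatives run. Most member counts below stand without the count over all components in the same setting. Alone they show how calls depend on the setting, not a trait of the members. The list with a ratio of at least 4 is longer than the 200 members in every comparison. For the S14 buds (1 called) the count was 0 with a pseudocount of 0.25, no filter, the filter over 14 libraries, upper-quartile scaling, robust shrinkage, voom, a fetal mean of at least 200 or no replicate block, 2 with median-centred libraries or with all members of a ratio of at least 4, and 1 to 1 without 1 pair, although comp5256_c0 itself lost its call without the anterior (limma adjusted p = 0.073) or posterior pair (0.25). For the limb difference by period (1 called) it was 0 with no filter, the filter over 14 libraries, voom, a fetal mean of at least 200 or no replicate block, 2 with robust shrinkage, and 0 (interdigital) to 9 (middle bud) without 1 pair. For the wing (3 called) it was 0 with no filter or the filter over 14 libraries, 7 with robust shrinkage, 5 with voom, 6 with a ratio of at least 4, 1 with no replicate block, 5 against the thumb side alone, and 0 (without foot interdigital tissue) to 4 without 1 library; it was 1 without digits II-V or without foot digits. For digits against interdigital tissue (0 called) it was 3 with median-centred libraries, 1 with upper-quartile scaling, 1 with robust shrinkage, 4 with voom, 3 with a ratio of at least 4, 1 with a fetal mean of at least 200, and 0 to 1 without 1 region. For the stage change (63 called) it was 137 with a ratio of at least 4, a longer list, and 57 to 63 without 1 library. Parts were paired by their anatomical names. The designs are balanced, so leaving out that block changes only the error of a difference. It could not have reversed a direction. The filter over 14 libraries admits components seen only in the fetal pair, and the prior degrees of freedom of limma's shrinkage then fell from 9.38 to 2.63 in the S14 fit and from 11.1 to 4.75 in the S15-17 fits. Over all components, calls then fell from 127 to 0 at S14, from 120 to 3 for the wing and from 178 to 4 for digits, and with no filter to 0 in each. Of the 200 members, 190 stayed with a pseudocount of 5 in the ratio and 200 with median-centred fetal libraries.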
